A study of Homo sapiens with 12 samples.

Results

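HaCaT keratinocytes that had received M5 together with lefamulin were compared with HaCaT keratinocytes that had received nothing, to ask what state the cells reached relative to their own baseline. The comparison used the 3 libraries labelled M5 with lefamulin and the 3 labelled as untreated, 6 of the 12 libraries of the series, and covered the 14207 of 22545 genes in the count table that passed a filter on low counts. HaCaT is an immortalised human keratinocyte line, and every library carries the genotype label WT. The other groups of the series, with 3 libraries each, received M5 alone or M5 with retapamulin. Neither the composition of M5 nor any dose, time or solvent is given in the sources used here, and no library had lefamulin without M5. HaCaT cells are known to form a poorer cornified layer than primary keratinocytes, which limits them as a model of epidermis. The extraction text in the labels speaks of mouse epidermis, against the human HaCaT source given for each library. Marker genes were therefore checked for cell type. Keratinocyte markers are shared by epidermis and HaCaT, so their presence alone does not decide between these sources.

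M5 is commonly the name of a mix of inflammatory cytokines that gives cultured keratinocytes features of psoriasis. Keratinocytes answer such cytokines through NF-kB and STAT3, with chemokines that draw in neutrophils, with antimicrobial peptides and with changes in keratins. Lefamulin is a pleuromutilin, an antibiotic class that binds the peptidyl transferase centre of the bacterial ribosome. The title of the series also names hnRNP-U, an RNA-binding protein of the nucleus encoded by HNRNPU, and TNF-α, encoded by TNF.

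The 9 libraries of untreated, M5 and M5 with lefamulin cells held 35110519 to 37272290 counts and 17266 to 17955 genes with a count. In principal components over all 12 libraries, which include 3 of M5 with retapamulin at 60.1 to 61.4 on the first axis, the first component held 62.9% of the variance and put untreated cells at -82.2 to -80.9, M5 at -24.1 to -23.4 and lefamulin at 44.0 to 44.5. The second held 20.1%, with ranges of 29.4 to 31.8, -55.4 to -52.2 and 7.79 to 9.39 in that order, so the lefamulin libraries lay on the far side of M5 from untreated cells on the first axis and between both on the second. All 8 keratinocyte markers checked had counts in every group. CPM are counts scaled to each library's size with TMM factors, the unit throughout. The summed level was 2809 to 2933 CPM in untreated, 2119 to 2218 CPM in M5 and 2634 to 2761 CPM in lefamulin libraries. The sum hides opposite moves, as 4 of the 8 markers were called higher and 3 lower with lefamulin than in untreated cells. KRT5 had means of 1632 and 454 CPM in untreated and lefamulin libraries, and SFN had 466.5 and 1267 CPM. KRT14, a defining basal keratin, was low throughout, at 8.52 CPM in untreated cells. Summed markers of other cell types were 14.7 to 16.7 CPM in untreated and 118 to 123 CPM in lefamulin libraries for endothelium, with 117 to 122 CPM in M5 libraries, where CDH5 made up nearly all and PECAM1 had 1 count in untreated, 1 in lefamulin and 2 in M5 libraries. They were 12.3 to 14.1 and 39.7 to 43.0 CPM for leukocytes (CD68, with PTPRC at 2 counts and 1), 7.17 to 7.94 and 15.4 to 17.0 CPM for fibroblasts (COL1A1, with COL1A2, COL3A1 and DCN at 0 in lefamulin libraries), and 25.4 to 27.3 and 14.5 to 16.1 CPM for melanocytes (MITF, with TYRP1 at 0 in both). SOX2, a Merkel cell marker, made up most of the last list, which stayed under 0.5 CPM in both groups. The part of such cells in the results was not tested.

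Most genes differed from untreated cells. With edgeR's quasi-likelihood test and an adjusted p under 0.05 as the threshold for a call, 5244 of the 14207 genes (36.9%) were higher and 5275 (37.1%) lower in M5 with lefamulin, 74.0% in all. Of these, 1759 (12.4%) were higher and 1355 (9.54%) lower by at least 2-fold, and for 10818 genes (76.1%) the 3 and 3 libraries did not overlap. Between M5 with lefamulin and M5 alone 67.9% were called. M5 alone against the same untreated libraries gave 4022 higher (28.3%) and 3817 lower genes (26.9%), 55.2% in all. The median size of the difference over all genes was 0.48 on the log2 scale for M5 with lefamulin and 0.25 for M5 alone, and 0.37 between these groups; the 3 comparisons share libraries in pairs. A call against so high a background says little about a single list. Each list count below is to be read against the shares of all genes, 36.9% higher and 37.1% lower. List counts cover tested members only. A member without counts in untreated cells passed the filter through the other groups, so it could not fall. Shares called were near 74.0% in the Notch (76.9%), sterol efflux and transport (76.9%), antimicrobial (75%) and cytosolic ribosomal (75%) lists. They were lower for prostaglandin (66.7%), mitochondrially encoded (61.5%), kallikrein (57.1%) and proteasome (52.9%) genes. List medians are to be read against the median over all genes, which was -0.02. On library totals in place of TMM scaling this median moved to -0.18, and 38.6% of the called genes were higher against 49.9% with TMM. Below, a value in brackets with its SE is a log2 fold change against untreated cells unless M5 is named, from the same fit, and a level with ± is the mean and SD of 3 libraries. Every gene said to rise or fall was called. A step means a difference between groups of libraries, from untreated to M5 or from M5 to M5 with lefamulin. It says nothing of an order in time. The labels do not say that libraries of a group came from separate cultures, so p-values may measure technical spread only. Fewer cells of a kind and less RNA per cell cannot be told apart in such bulk libraries.

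**Figure D1:**
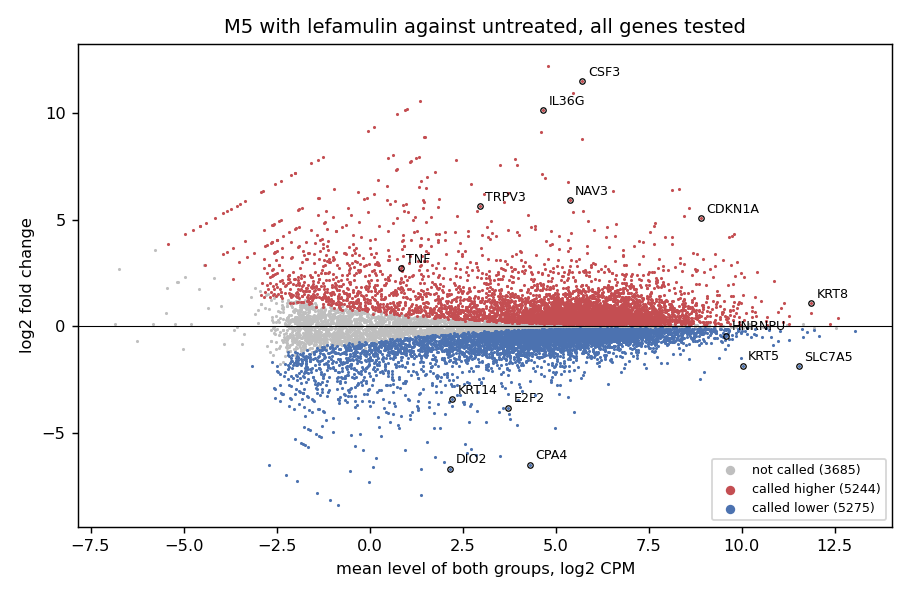
Each point is 1 of 14204 genes, with the mean level of both groups (log2 CPM) on the x axis and the log2 fold change of M5 with lefamulin against untreated cells on the y axis; 3 genes without counts in either group are not drawn. Red points were called higher (5244), blue points lower (5275) and grey points were not called, and CDKN1A, CSF3 and TRPV3 lie in the upper part while DIO2, CPA4 and KRT14 lie in the lower.

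Cholesterol and fatty acid synthesis genes were among the clearest gains. Cells make cholesterol from acetyl-CoA through the mevalonate pathway, and the SREBP transcription factors raise its enzymes when sterols in the endoplasmic reticulum are low. Of 21 tested genes of cholesterol synthesis 20 rose and 1 fell (19 and 2 on library totals), with a median log2 fold change of 2.54, beside 0.32 with M5 alone. HMGCS1, which makes the HMG-CoA that feeds the pathway, had 82.3, 78.4 and 87.7 CPM in untreated libraries, 143, 142 and 146 CPM with M5 and 1505, 1525 and 1537 CPM with M5 and lefamulin. Its log2 fold change against untreated cells was 4.20, SE 0.03 (edgeR adjusted p = 5.2e-30), and no lefamulin library came near the other groups. MSMO1, a C4-methyl sterol oxidase late in the pathway, went from 29 ± 2.14 to 533 ± 8.06 CPM (SD, n = 3; 4.20, SE 0.04). The exception was PMVK, phosphomevalonate kinase, which fell (-0.37, SE 0.10).

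Genes that regulate and move sterols were split. INSIG1, which holds SREBP in the endoplasmic reticulum and is itself an SREBP target, had 14.8, 14.3 and 14.6 CPM in untreated, 21.3, 20.3 and 25.4 CPM in M5 and 382, 388 and 384 CPM in lefamulin libraries (4.72, SE 0.05, edgeR adjusted p = 3.6e-28). The 3 groups did not overlap, and the lefamulin libraries were far above both others. Within the list of SREBP regulation 8 of 12 rose and 4 fell, among the latter MYLIP, a ubiquitin ligase (-1.29, SE 0.11). NPC1, which moves cholesterol out of lysosomes, went from 73.5 ± 1.21 to 572 ± 1.16 CPM (2.96, SE 0.03), whereas ABCG2, a membrane exporter, fell (-1.25, SE 0.06). In the list of sterol efflux and transport 6 of 13 rose and 4 fell.

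Fatty acid synthesis followed with 14 of 16 genes up and 2 down, a median of 1.15 beside -0.02 with M5 alone. FASN, the fatty acid synthase, had 402, 397 and 378 CPM in untreated libraries and 2439, 2259 and 2269 CPM with lefamulin (2.56, SE 0.03), and 455, 423 and 434 CPM with M5 alone. The 3 lefamulin libraries were all above the 6 others. ACSS2 and ACLY, which supply cytosolic acetyl-CoA, rose by 3.87 (SE 0.04) and 2.30 (SE 0.03), and SCD, the stearoyl-CoA desaturase, by 2.11 (SE 0.03). ACACB, an acetyl-CoA carboxylase tied to the control of fatty acid oxidation, fell (-1.84, SE 0.15). LPIN1, a phosphatidic acid phosphatase on the way to triglycerides, went from 26 ± 1.9 to 466 ± 2.99 CPM (4.16, SE 0.04). Of 17 triglyceride and lipid droplet genes 11 rose and 3 fell, and of 15 genes of epidermal barrier lipids 10 rose and 2 fell (4 fell on filtered FPKM). ABCA12, the lipid carrier of lamellar granules, was among the gains (2.82, SE 0.09).

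Promoters of HMGCS1 and MSMO1 are shown because both genes rose most in the cholesterol list and both hold the CCAAT box, the site of NF-Y, which is known to work beside SREBP. The 250 bases before the start are from RefSeq (GRCh38.p14), 5′ to 3′ on the gene's strand, with CCAAT or its reverse complement in capitals, for HMGCS1 at chr5:43313413-43313662 on the minus strand (the first of 2 starts with a match) and MSMO1 at chr4:165327419-165327668 on the plus strand.
HMGCS1: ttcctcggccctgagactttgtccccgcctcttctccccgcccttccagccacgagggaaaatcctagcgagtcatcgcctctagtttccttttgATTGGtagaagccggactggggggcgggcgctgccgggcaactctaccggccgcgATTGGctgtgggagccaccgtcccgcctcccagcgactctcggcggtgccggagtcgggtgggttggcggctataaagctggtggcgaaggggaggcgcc
MSMO1: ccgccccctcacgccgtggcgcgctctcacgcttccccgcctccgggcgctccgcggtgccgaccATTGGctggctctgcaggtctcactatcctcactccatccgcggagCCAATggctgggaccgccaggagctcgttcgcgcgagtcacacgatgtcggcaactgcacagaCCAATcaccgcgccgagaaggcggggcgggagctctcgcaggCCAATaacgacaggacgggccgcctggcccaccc
CCAAT on either strand was found in 13 of 16 promoters of the cholesterol list with an entry (81.2%), against 40.9% of 11129 promoters of genes tested. It was found in 9 of 15 promoters of the fatty acid list (60.0%). The sterol element written as TCACNCCAC was in 0 of 16 and 0 of 15 of these promoters and in 1.12% of those of genes tested, and within the list of SREBP regulation it was found in SREBF2 alone of 9. These are matches of letters in 1 window, and the motifs were picked after matches had been seen.

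Genes that answer growth and stress signals within minutes to hours stood higher as a group. Immediate early genes encode transcription factors such as AP-1 that are induced through MAP kinases without new protein synthesis, and DUSP and Sprouty proteins then damp those kinases. All 24 tested immediate early genes rose (23 on library totals), with a median of 1.74, beside 18 up and 3 down with M5 alone (median 0.56). FOSB, an AP-1 subunit, had 3.25, 2.78 and 1.97 CPM in untreated, 3.93, 2.86 and 3.22 CPM in M5 and 31.2, 27.5 and 32.4 CPM in lefamulin libraries (3.51, SE 0.13, edgeR adjusted p = 1.2e-18). M5 and untreated libraries overlapped for FOSB, and the lefamulin libraries stood apart from both. FOS rose by 3.17 (SE 0.12) and the nuclear receptor NR4A2 by 3.10 (SE 0.11), while MYC, which drives growth genes, rose by 0.39 (SE 0.04). EGR1, a zinc finger factor, showed different directions by group: M5 libraries had 10.4, 9.01 and 10.8 CPM against 15.1, 15.5 and 17.9 CPM in untreated (-0.68, SE 0.08), and lefamulin libraries had 41.8, 40.4 and 37.3 CPM (1.30, SE 0.07).

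Feedback regulators and ligands of the EGF receptor were higher too. Of 19 DUSP and Sprouty genes 17 rose and the other two were not called, while 16 rose and 1 fell on FPKM (median 1.35, with M5 alone 0.44). DUSP5, a nuclear phosphatase for ERK, had 19.5, 20.3 and 22.6 CPM in untreated and 182, 169 and 166 CPM in lefamulin libraries (3.05, SE 0.05), and 22.1, 23.2 and 23.8 CPM with M5. Of 16 genes of EGF receptor ligands, receptors and hyaluronan 12 rose and 3 fell, beside 12 higher and 2 lower with M5 alone (medians 1.57 and 0.50). HBEGF, a ligand of keratinocyte migration, had 3.55, 3.68 and 3.77 CPM and then 114, 113 and 115 CPM (4.95, SE 0.07), with 53, 51.6 and 50.4 CPM after M5 alone. HAS2, a hyaluronan synthase, rose (2.57, SE 0.09), and the ligand NRG1 fell (-1.09, SE 0.05) although it was higher with M5 alone (0.46, SE 0.05).

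Genes of DNA replication were lower without exception in the list. All 44 tested members fell, with a median of -1.18, whereas M5 alone gave 30 lower and 3 higher and a median of -0.19. E2F1, a factor that drives S-phase genes, had 57.4, 62 and 56 CPM in untreated, 55, 52.4 and 50.9 CPM in M5 and 13.5, 11.8 and 12.1 CPM in lefamulin libraries (-2.23, SE 0.06, edgeR adjusted p = 5.2e-20). M5 libraries lay just below untreated ones, and the lefamulin libraries lay far below both. E2F2 had the largest fall in the list, from 24.6 ± 1.77 to 1.77 ± 0.689 CPM (-3.80, SE 0.20). MCM6, a subunit of the replicative helicase, had 180.1, 180.3 and 189 CPM and then 45.6, 50.5 and 45.6 CPM (-1.96, SE 0.04), and CHAF1B, which loads histones onto new DNA, fell (-2.20, SE 0.09). The smallest fall was that of CDC6, a licensing factor, at -0.23 (SE 0.04).

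Promoters of E2F1 and MCM6 are shown as members of the list that hold the E2F motif searched, TTTNNCGC on either strand, where N is any base. The capitals mark its matches, some of which overlap, in the 250 bases before the start (RefSeq, GRCh38.p14), for E2F1 at chr20:33686386-33686635 and MCM6 at chr2:135876444-135876693, both on the minus strand.
E2F1: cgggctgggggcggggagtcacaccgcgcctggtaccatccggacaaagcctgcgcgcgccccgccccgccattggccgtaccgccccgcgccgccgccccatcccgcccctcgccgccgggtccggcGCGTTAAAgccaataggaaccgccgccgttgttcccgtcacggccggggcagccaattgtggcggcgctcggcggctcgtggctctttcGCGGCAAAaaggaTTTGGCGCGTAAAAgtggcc
MCM6: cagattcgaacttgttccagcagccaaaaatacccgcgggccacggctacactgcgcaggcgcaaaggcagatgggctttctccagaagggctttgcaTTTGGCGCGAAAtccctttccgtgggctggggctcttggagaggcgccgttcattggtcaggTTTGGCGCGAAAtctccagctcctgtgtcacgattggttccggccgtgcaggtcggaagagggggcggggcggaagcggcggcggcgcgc
The motif was in 18 of 39 promoters of the replication list (46.2%), 3 of 31 of the mitosis list (9.68%) and 11% of promoters of genes tested. CCAAT was in 23 of 39 (59.0%) and 25 of 31 (80.6%) of these promoters, against 40.9%. E2F1 and MCM6 each held 4 matches, and 3 stricter spellings of the motif had also been tried.

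Mitosis and cell cycle control moved less evenly. Of 38 mitosis genes 32 fell and 4 rose (median -0.55, with M5 alone -0.19), and the rises were no longer called on library totals and on FPKM. KIF20A, a kinesin of cytokinesis, had 163, 158 and 160.2 CPM in untreated, 122, 122 and 126 CPM in M5 and 67.8, 68.6 and 70.8 CPM in lefamulin libraries (-1.22, SE 0.04). CDKN1A, the cyclin-dependent kinase inhibitor p21, had 28.6, 27.8 and 27.9 CPM in untreated, 92.6, 88.5 and 90.2 CPM in M5 and 946, 923 and 936 CPM in lefamulin libraries, which is a log2 fold change of 5.06, SE 0.03 (edgeR adjusted p = 1.7e-31). The 3 groups were far apart, and the libraries of each lay close together. Within the list of CDK inhibitors and G1 cyclins 12 of 18 fell and 4 rose. CDKN2C, the inhibitor p18, went the other way from CDKN1A (-2.66, SE 0.14), and CDKN2B, the inhibitor p15, rose (0.95, SE 0.07) although it was lower with M5 alone (-1.32, SE 0.08).

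**Figure D2:**
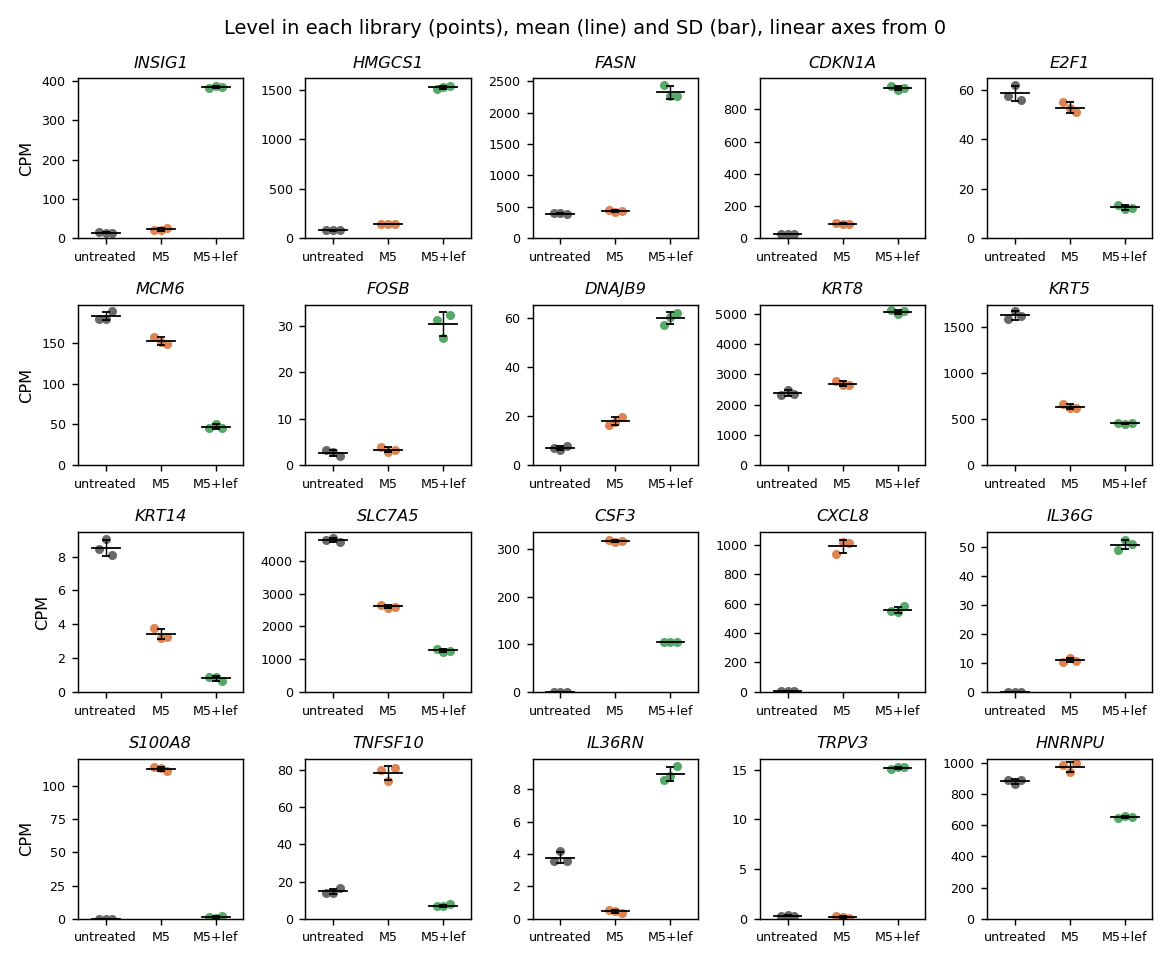
Points show the CPM of each of 3 libraries for untreated cells, M5 and M5 with lefamulin (M5+lef), on linear axes from 0, with the mean as a line and the SD as a bar, for 20 genes. INSIG1, HMGCS1, CDKN1A and TRPV3 were highest with lefamulin, CSF3, CXCL8 and S100A8 were highest with M5 alone, and E2F1, MCM6 and HNRNPU were lowest with lefamulin.

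Genes of the response to stress of the endoplasmic reticulum (ER) shared a direction as well. Unfolded protein in the ER raises chaperones through ATF6, XBP1 and PERK, and PERK and other kinases raise ATF4, which turns on amino acid supply and, later, growth arrest genes. All 22 ER chaperone and unfolded protein response genes rose, with a median of 1.11; all 22 also rose with M5 alone, with a median of 0.53. DNAJB9, a cochaperone of the ER, had 6.85, 6.04 and 7.75 CPM in untreated, 16.6, 17.5 and 19.8 CPM in M5 and 57.5, 60.7 and 62.2 CPM in lefamulin libraries (3.13, SE 0.08, edgeR adjusted p = 5.5e-22). HSPA5, the main ER chaperone BiP, went from 731 ± 13.6 to 1907 ± 23 CPM (1.38, SE 0.03), and MANF, a secreted ER stress protein, from 57.6 ± 4.49 to 211 ± 5.64 CPM (1.88, SE 0.04). The groups of these genes were ordered untreated, M5, M5 with lefamulin without overlap.

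Of 31 genes of the ATF4 response 26 rose and 5 fell (median 0.84, with M5 alone 0.27). GDF15, a stress-induced cytokine, had 6.39, 7 and 5.8 CPM in untreated and 79.3, 71.7 and 73.6 CPM in lefamulin libraries (3.55, SE 0.07), and PPP1R15A, which reverses the block on translation, rose by 2.72 (SE 0.03). The 5 that fell were amino acid transporters and serine synthesis genes: SLC7A5, SLC3A2, SLC7A11, PSPH and PHGDH. SLC7A5 and SLC3A2 encode the 2 chains of the large neutral amino acid transporter, and both fell. SLC7A5 had 4643, 4701 and 4584 CPM in untreated, 2659, 2565 and 2604 CPM in M5 and 1317, 1222 and 1261 CPM in lefamulin libraries (-1.87, SE 0.03), and SLC3A2 had 1456, 1530.1 and 1501 CPM in untreated, 872, 828 and 846 CPM in M5 and 552, 529 and 543 CPM in lefamulin libraries (-1.47, SE 0.03). Each step was downward and no groups overlapped. Cytosolic heat shock genes went mostly down, with 9 of 14 lower and 3 higher (median -0.33): HSPB1, a small heat shock protein, fell (-1.29, SE 0.04), and HSPA8, the constitutive HSC70, fell (-0.49, SE 0.03) although it was higher with M5 alone (0.47, SE 0.03).

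Most tested chemokines were above untreated cells in M5 with lefamulin. Of 13 tested chemokines 12 rose and CCL26 fell (-1.61, SE 0.33), in both M5 with lefamulin and M5 alone. A further 8 of the 21 entries were not tested. Among those, CXCL10 and CXCL11 had 4 and 11 counts in untreated and 1 each in lefamulin libraries. CXCL17 and CCL7 had 0 in untreated and 6 and 1 in lefamulin libraries. Over the tested members the median was 6.28, or 4.76 with the 3 members without untreated counts at their lower bounds. With M5 alone it was 7.22, unchanged to 2 decimals at the bounds. These 3 members passed the filter through other groups and could not fall. CXCL8, the neutrophil attractant interleukin 8, had 6.54, 6.2 and 7.15 CPM in untreated, 934, 1015 and 1013 CPM in M5 and 548, 540.4 and 583 CPM in lefamulin libraries (6.39, SE 0.06 against untreated, -0.83, SE 0.04 against M5). Lefamulin libraries lay below all M5 libraries and far above all untreated ones. CCL20, which attracts cells with the receptor CCR6, had no count in untreated libraries and 4.12, 4.52 and 3.39 CPM with lefamulin, at least 157-fold higher than a floor of 3 counts over the group, with 14.8, 14.8 and 14.1 CPM in M5. PPBP, the precursor of CXCL7, was at least 153-fold higher by the same measure. CXCL5 had 3.29, 3.44 and 2.96 CPM against 2 counts in all untreated libraries, a ratio of 190.3 (95% counting interval 52.3 to 1578), beside 44.1, 46.4 and 46.9 CPM with M5.

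Promoters of CCL20 and CXCL5 are shown as chemokine genes with the NF-kB motif searched, which is GGG, any 3 bases and then TTCC on either strand, in capitals, in the 250 bases before the start (RefSeq, GRCh38.p14), for CCL20 at chr2:227813592-227813841 on the plus strand and CXCL5 at chr4:73998678-73998927 on the minus strand.
CCL20: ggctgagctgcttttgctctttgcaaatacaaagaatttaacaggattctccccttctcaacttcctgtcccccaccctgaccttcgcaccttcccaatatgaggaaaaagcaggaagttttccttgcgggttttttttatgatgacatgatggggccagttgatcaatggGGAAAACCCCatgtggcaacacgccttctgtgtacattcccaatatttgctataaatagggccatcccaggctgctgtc
CXCL5: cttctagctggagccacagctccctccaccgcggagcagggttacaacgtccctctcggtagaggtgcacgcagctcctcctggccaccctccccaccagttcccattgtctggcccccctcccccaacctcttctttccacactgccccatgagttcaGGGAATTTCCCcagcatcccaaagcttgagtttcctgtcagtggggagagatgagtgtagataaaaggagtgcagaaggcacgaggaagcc
The motif was in 5 of 10 promoters of the chemokine list (50.0%), 12 of 22 of the NF-kB list (54.5%) and 8.81% of promoters of genes tested. The match of CCL20 began 79 bases before the start. Genes of the NF-kB list were chosen as NF-kB subunits, brakes and targets, so a high share was likely beforehand. The motif was kept after its matches had been seen, and its part in the rises was not tested.

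Cytokines were split between those nearer to baseline than with M5 alone and those farther from it. Of 26 tested genes 20 rose and 4 fell (median 2.90, or 2.72 with 3 members at their bounds, and with M5 alone 3.05). CSF3, which encodes the neutrophil growth factor G-CSF, had 0, 0.0259 and 0.075 CPM in untreated, 319, 314 and 318 CPM in M5 and 106, 105 and 105 CPM in lefamulin libraries (11.46, SE 0.62, edgeR adjusted p = 2.6e-29). IL36G, an IL-1 family cytokine of psoriatic skin, had 0.0511, 0.0259 and 0.05 CPM in untreated, 10.5, 11.7 and 10.7 CPM in M5 and 49.2, 52.5 and 50.9 CPM in lefamulin libraries (10.11, SE 0.54 against untreated, 2.22, SE 0.06 against M5). So lefamulin libraries lay below M5 for CSF3 and above it for IL36G. IL6 and IL1B, general inflammatory cytokines, had 5.82 ± 0.474 and 155 ± 7.82 CPM with lefamulin, against 0.424 ± 0.0566 and 27.6 ± 2.27 in untreated and 18.5 ± 0.697 and 464 ± 10.6 with M5. CSF2, the growth factor GM-CSF, was higher at both steps, with 0.272 ± 0.0369 CPM in untreated, 1.66 ± 0.0887 CPM in M5 and 9.97 ± 0.47 CPM in lefamulin libraries.

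TNF, the title gene, had 0.409, 0.545 and 0.45 CPM in untreated libraries, 5.29, 4.73 and 5.34 CPM in M5 libraries and 2.35, 3.19 and 3.82 CPM in lefamulin libraries. The lefamulin libraries lay between the other groups with no overlap, and spread more among themselves than those of M5. TNF was thus 2.73 above untreated cells on the log2 scale (SE 0.25, edgeR adjusted p = 1.8e-10) and differed from M5 by -0.71 (SE 0.19, adjusted p = 0.0015). The value against untreated cells was 1.10 on log2(FPKM + 1), a scale that understates changes of low genes. TNFSF10, which encodes the death ligand TRAIL, went below baseline: it had 14, 13.9 and 16.4 CPM in untreated, 79.95, 74 and 80.8 CPM in M5 and 6.72, 6.89 and 7.69 CPM in lefamulin libraries (-1.06, SE 0.08). IL36RN, the antagonist of IL-36, went above it, with 3.6, 4.2 and 3.55 CPM in untreated, 0.561, 0.467 and 0.375 CPM in M5 and 8.57, 8.84 and 9.43 CPM in lefamulin libraries (1.24, SE 0.11). For both genes M5 and M5 with lefamulin lay on opposite sides of untreated cells.

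Antimicrobial peptides and alarmins had 9 of 12 members up, 3 not called, and a median of 5.44 (5.21 with 1 member at its bound; with M5 alone 6.42). They kill microbes or signal damage. S100A8 and S100A9 encode the chains of calprotectin and differed in how near they came to baseline. S100A8 had 0.0256, 0 and 0.05 CPM in untreated, 114, 113 and 111 CPM in M5 and 1.27, 0.932 and 1.77 CPM in lefamulin libraries, a ratio of 51.8 to the 3 untreated counts (95% counting interval 17.4 to 254). S100A9 had 8.02, 8.46 and 9 CPM in untreated, 969, 946 and 947 CPM in M5 and 153, 152 and 158 CPM in lefamulin libraries (4.18, SE 0.05). Against M5 the difference was -6.41 (SE 0.14) for S100A8 and -2.63 (SE 0.03) for S100A9. PI3, the elastase inhibitor elafin, had 104, 103 and 104 CPM against 0.153, 0.389 and 0.175 CPM in untreated (8.75, SE 0.26) and 287, 295 and 296 CPM with M5. LCN2, an iron-scavenging lipocalin, differed little from M5 (-0.12, SE 0.04), at 753 ± 10.9 against 819 ± 13.1 CPM, with 16.4 ± 1.81 CPM in untreated cells.

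SERPINB3 and SERPINB4, squamous cell carcinoma antigens of the clade B serpins, are close paralogs whose counts are uncertain. SERPINB3 had 1 count in untreated libraries, 531, 512 and 589 CPM in M5 and 55.7, 53.8 and 57 CPM in lefamulin libraries, a ratio to untreated of 6532 (95% counting interval 1172 to 258020.0). SERPINB4 had 0.0425 ± 0.0296 CPM in untreated, 832 ± 50.7 CPM in M5 and 89.1 ± 1.86 CPM in lefamulin libraries (10.92, SE 0.65). Both thus lay well under M5 and far over baseline. Of 10 tested clade B serpins 8 rose and 2 fell (1 fell with the filter at 1 CPM in 3 libraries).

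Targets and brakes of NF-kB were mostly higher, with 21 of 24 up and 2 down (median 1.78); with M5 alone all 24 were higher (2.18). SOD2, the mitochondrial superoxide dismutase, had 87.5, 82.8 and 86.1 CPM in untreated, 2909, 2841 and 3019 CPM in M5 and 1624, 1648 and 1612 CPM in lefamulin libraries (4.25, SE 0.03, edgeR adjusted p = 4.7e-31). The 2 lower genes were TNFAIP2, a TNF-induced protein of membrane tubes, and CD83, a surface protein of activated cells. TNFAIP2 had 162, 159.5 and 158 CPM in untreated, 758, 737 and 768 CPM in M5 and 94.8, 86.1 and 93.7 CPM in lefamulin libraries (-0.80, SE 0.04), so it was above baseline with M5 and below it with lefamulin. IRAK2, a kinase of IL-1 receptor signalling, stood higher with lefamulin than with M5 (1.51, SE 0.22) and was 253 times its 2 counts in untreated libraries (95% counting interval 69.5 to 2092). In the STAT3 list 14 of 20 rose and 5 fell. SOCS3, its feedback inhibitor, had 185 ± 6.33 CPM against 9.77 ± 0.262 in untreated (4.24, SE 0.05), OSMR, the oncostatin M receptor, rose (3.14, SE 0.03), and the receptor chain of IL-22, IL22RA1, fell (-2.97, SE 0.46).

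Interferon-stimulated genes did not share a direction. These genes answer interferons and hinder viruses. Of 30 tested 10 rose and 15 fell (median -0.19), beside 15 higher and 6 lower with M5 alone (0.20). IFIT1, which binds foreign RNA caps, had 21.8, 21.8 and 23.6 CPM in untreated, 5.83, 6.71 and 6.52 CPM in M5 and 1.22, 1.64 and 1.88 CPM in lefamulin libraries (-3.83, SE 0.14). ISG20, an exonuclease, had 0.23, 0.415 and 0.45 CPM in untreated, 2.08, 1.68 and 2.01 CPM in M5 and 8.29, 7.65 and 7.55 CPM in lefamulin libraries (4.41, SE 0.24). They thus moved in opposite directions at both steps. TRIM22, an antiviral ubiquitin ligase, was higher with M5 (32.6 ± 0.885 CPM against 14.3 ± 1.01) and below baseline with lefamulin (4 ± 0.522 CPM, -1.84, SE 0.12). Of 16 genes of MHC class I and peptide loading 10 rose and 4 fell: HLA-B rose (1.07, SE 0.05), and PSMB9, a subunit of the immunoproteasome, fell (-1.61, SE 0.07). Of 12 complement genes 8 rose and 4 fell, with CFB, factor B of the alternative pathway, at 159 ± 0.522 CPM against 6.41 ± 0.794 in untreated and 459 ± 8.57 with M5.

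**Figure D3:**
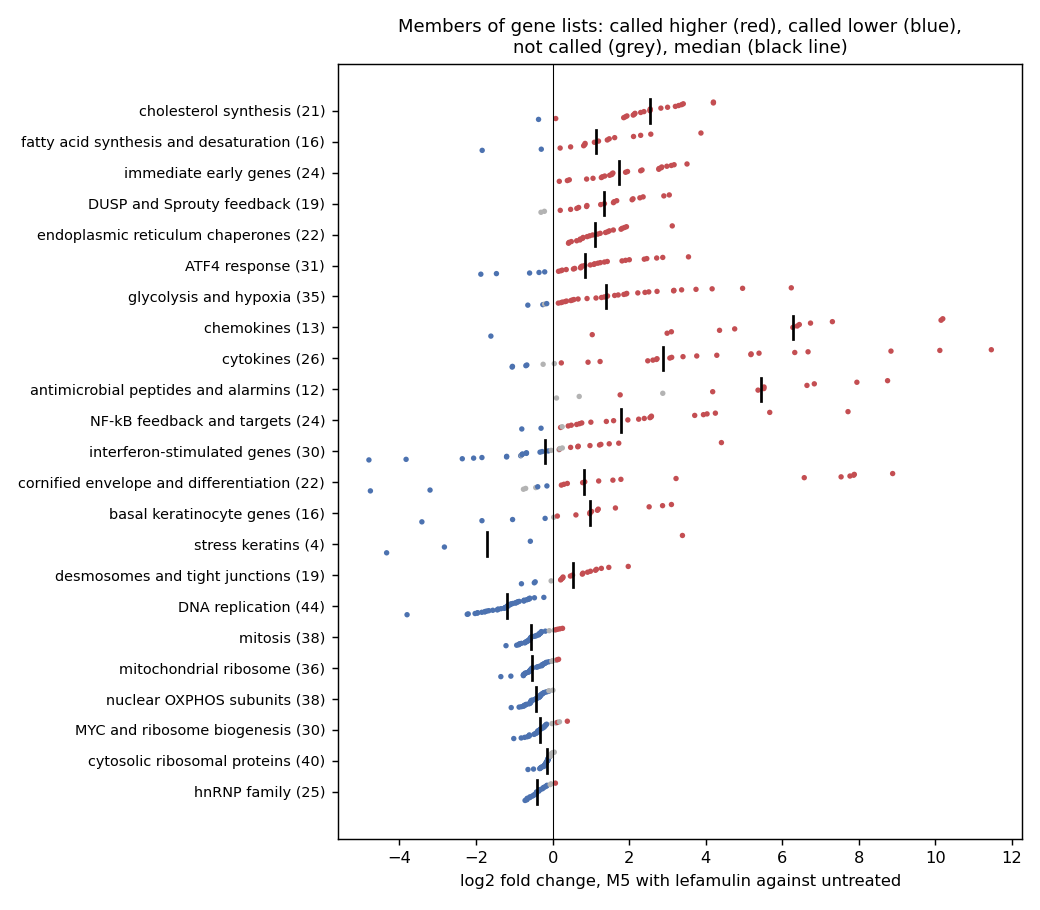
Each point is a tested member of 1 of 23 gene lists, with its log2 fold change of M5 with lefamulin against untreated cells on the x axis, called higher in red, called lower in blue and not called in grey; black lines mark medians and brackets the number tested. Members of cholesterol synthesis, immediate early genes and ER chaperones lie to the right of 0 apart from PMVK, all 44 members of DNA replication lie to the left, and interferon-stimulated genes lie on both sides.

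KRT5, KRT14, KRT16 and KRT17 were lower than in untreated cells, and KRT8 and KRT18 were higher. KRT5, which pairs with KRT14 in basal cells, had 1588, 1680.2 and 1627 CPM in untreated, 666, 619 and 627 CPM in M5 and 463, 447 and 454 CPM in lefamulin libraries (-1.84, SE 0.03, edgeR adjusted p = 4.0e-24). KRT14 had 8.43, 9.03 and 8.1 CPM in untreated, 3.8, 3.22 and 3.27 CPM in M5 and 0.857, 0.904 and 0.627 CPM in lefamulin libraries (-3.41, SE 0.22). KRT16 and KRT17, which mark wounded and psoriatic epidermis, had log2 fold changes of -4.33 (SE 0.17) and -2.83 (SE 0.09). Both also fell with M5 alone, where 2 of the 4 tested stress keratins rose and 2 fell. KRT6A, of the same kind, had 36.3, 40.5 and 36.8 CPM in untreated, 82, 78.2 and 81.6 CPM in M5 and 24.6, 25.7 and 25.6 CPM in lefamulin libraries (-0.58, SE 0.05), so it was above baseline with M5 and below it with lefamulin. KRT6A and KRT6B are close paralogs with uncertain counts; KRT6B had 1 count in untreated libraries and 0.122 ± 0.0576 CPM with lefamulin, a ratio of 14.3 (95% counting interval 2.15 to 609) that was not called on FPKM. KRT8, a keratin of simple epithelium, had 2319, 2491 and 2346 CPM in untreated, 2772, 2629 and 2639 CPM in M5 and 5109.7, 4981 and 5095 CPM in lefamulin libraries (1.09, SE 0.03), and its partner KRT18 rose as much (1.09, SE 0.03). KRT7 fell (-0.66, SE 0.03), and in the list of simple keratins 3 of 6 rose and 2 fell.

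Most other genes of the basal layer rose. Of 16 tested members 11 rose and 4 fell, beside 11 higher and 5 lower with M5 alone (medians 0.97 and 0.45). ITGA2, a collagen receptor subunit, had 156, 139 and 160.3 CPM in untreated, 257, 249.6 and 264 CPM in M5 and 1266, 1339 and 1312 CPM in lefamulin libraries (3.10, SE 0.04). LAMB3, a chain of laminin-332, which anchors basal cells and marks migrating ones, rose by 2.52 (SE 0.03). Of 19 desmosome and tight junction genes 15 rose and 3 fell (median 0.52, with M5 alone 0.01). CLDN4, a tight junction claudin, had 334, 370.3 and 349 CPM in untreated, 278, 257 and 264 CPM in M5 and 1405, 1357 and 1381 CPM in lefamulin libraries (1.98, SE 0.04). It was lowest with M5 and highest with lefamulin, without overlap.

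Differentiation genes moved in both directions. The cornified envelope is the protein shell of dead keratinocytes, crosslinked from involucrin, small proline-rich proteins and others. Of 22 tested genes 15 rose and 4 fell (7 fell on FPKM). SPRR1A, a small proline-rich precursor, had 5.81, 5.28 and 5.78 CPM with lefamulin against 1 count in untreated libraries, a ratio of 662 (95% counting interval 118 to 26185), and 0.668, 0.137 and 0.134 CPM in M5. IVL, which encodes involucrin, had 6.85, 6.28 and 6.17 CPM in untreated, 0.401, 0.44 and 0.134 CPM in M5 and 0.221, 0.254 and 0.228 CPM in lefamulin libraries (-4.76, SE 0.37). FLG, which encodes filaggrin of the granular layer, had 3.91, 2.7 and 3.82 CPM in untreated, 0.615, 0.66 and 0.483 CPM in M5 and 0.304, 0.311 and 0.513 CPM in lefamulin libraries (-3.20, SE 0.31). IVL and FLG were not called different between M5 and M5 with lefamulin (edgeR adjusted p = 0.36 and 0.1). The SPRR2 genes are near-identical copies with uncertain counts and were not read further. Of 7 kallikreins and inhibitors 2 rose (1 on library totals) and 2 fell; KLK10 rose (1.79, SE 0.04) and KLK6 fell (-1.33, SE 0.10).

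Proteases of the matrix rose in 11 of 17 cases and fell in 5 (median 2.46, with M5 alone 1.29). MMP1, the interstitial collagenase, had 0.0511, 0.233 and 0.1 CPM in untreated, 7.78, 8.99 and 7.35 CPM in M5 and 27.8, 31.9 and 29.7 CPM in lefamulin libraries (7.83, SE 0.39), and MMP10, a stromelysin, went from 0.161 ± 0.126 to 30.9 ± 2.27 CPM (7.55, SE 0.36). ADAMTS1, which cleaves proteoglycans, and TIMP3, a matrix-bound inhibitor, had log2 fold changes of -3.55 (SE 0.23) and -1.83 (SE 0.06). In the list of TGF-beta, YAP and mesenchymal genes 9 of 23 rose and 11 fell, and its median of 0.04 became negative on library totals, on FPKM, without untreated replicate 2 and without lefamulin replicate 1. INHBA, the activin A subunit, rose (2.53, SE 0.05), and TGFB2 (-3.19, SE 0.13) and SMAD6, an inhibitor of BMP signals (-3.99, SE 0.14), fell. Of 13 Notch pathway genes 3 rose and 7 fell, with LFNG, which tunes Notch for its ligands, lowest (-3.51, SE 0.21).

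Genes for the mitochondrial ribosome and the respiratory chain were lower, by small amounts each. Mitochondria translate 13 proteins from their own genome on ribosomes whose proteins come from nuclear genes. Of 36 mitochondrial ribosomal genes 31 fell and 2 rose, rises that were not called on library totals or FPKM and numbered 1 without lefamulin replicate 3 or without untreated replicate 1 (median -0.53, with M5 alone 0.02). Of 38 nuclear genes of oxidative phosphorylation 36 fell and the other two were not called (median -0.44, with M5 alone -0.08). MRPL24, a protein of the large subunit, had 40.5, 43.9 and 47.3 CPM in untreated, 32.6, 31.4 and 29.4 CPM in M5 and 16.6, 17.8 and 17.2 CPM in lefamulin libraries (-1.35, SE 0.07). ATP5MC1, a subunit of the ATP synthase ring, had 49.9, 56.3 and 56.4 CPM in untreated, 49.7, 47.3 and 47.2 CPM in M5 and 24.4, 25.1 and 27.4 CPM in lefamulin libraries (-1.08, SE 0.06). For both, M5 libraries lay under the untreated ones without overlap, and lefamulin libraries lay lower still. Of the 13 mitochondrially encoded mRNAs 4 rose and 4 fell, and M5 and untreated libraries overlapped for each of the 3 named here. ND3, a subunit of complex I, had 619, 693 and 639 CPM in untreated, 597, 726 and 662 CPM in M5 and 1246, 1359 and 1502 CPM in lefamulin libraries (1.07, SE 0.07), ND2 rose by 0.61 (SE 0.06), and ND5, of the same complex, fell (-0.40, SE 0.05). Counts of lower members in this set ranged from 2 with DESeq2 to 8 on library totals, and 7 were lower without untreated replicate 1.

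Ribosome assembly and RNA-binding proteins were lower as well. Of 30 genes of MYC and ribosome biogenesis 25 fell and 2 rose, with 4 rises without untreated replicate 2 and 1 on library totals and on FPKM (median -0.34), against 21 higher and 2 lower with M5 alone (0.19). NOP56, of the box C/D particles that modify ribosomal RNA, had 261, 263 and 269 CPM in untreated, 270.3, 279 and 267 CPM in M5 and 136, 129 and 128 CPM in lefamulin libraries (-1.01, SE 0.03). Of 40 cytosolic ribosomal protein genes 30 fell and 10 were not called (all 40 fell on library totals, and 1 rose without untreated replicate 2), with a median of -0.13; many have near-identical pseudogene copies that can share reads. RPSA was the lowest of them (-0.64, SE 0.03). In the hnRNP list 22 of 25 fell and 1 rose (median -0.41, with M5 alone 0.05). HNRNPU, which encodes hnRNP-U, had 889, 862 and 888 CPM in untreated, 987, 939 and 997 CPM in M5 and 647, 661 and 653 CPM in lefamulin libraries. All lefamulin libraries lay below all untreated ones, and the log2 fold change was -0.43, SE 0.03 (edgeR adjusted p = 1.3e-12). This value was close to the list's median. The 1 member called higher was HNRNPK (0.07), which was negative on library totals and on FPKM, where all 25 fell, and at 0.05 was not called without untreated replicate 1.

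Glycolytic and hypoxia genes rose in 31 of 35 cases and fell in 3 (median 1.41, with M5 alone 0.71). ANGPTL4, a secreted inhibitor of lipoprotein lipase, had 0.256, 0.467 and 0.3 CPM in untreated, 6.47, 4.89 and 6.01 CPM in M5 and 26.5, 25.4 and 25.6 CPM in lefamulin libraries (6.23, SE 0.22). GAPDH, often used as a reference gene, fell (-0.25, SE 0.03), as did PFKM (-0.65, SE 0.04). Lysosome and autophagy genes were mainly higher, 27 of 33 against 3 lower (6 on library totals). WIPI1, which binds forming autophagosomes, had 1.66, 1.19 and 1.32 CPM in untreated, 2.91, 2.58 and 1.98 CPM in M5 and 29.3, 29.8 and 29.8 CPM in lefamulin libraries (4.41, SE 0.13), and NEU1, a lysosomal sialidase, rose by 2.55 (SE 0.04). TFEB, a transcription factor of lysosomal genes, fell (-1.40, SE 0.21). The proteasome list depended on scaling: 4 of 34 rose and 14 fell, and on library totals 2 rose and 30 fell.

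TRPV3, a heat-gated calcium channel of keratinocytes, stood out among channels and sensors, of which 7 of 13 rose and 4 fell (the rises numbered 4 on library totals, where the median became negative). It had 0.256, 0.337 and 0.325 CPM in untreated, 0.294, 0.137 and 0.107 CPM in M5 and 15, 15.3 and 15.3 CPM in lefamulin libraries (5.62, SE 0.22, edgeR adjusted p = 9.7e-22). M5 libraries overlapped untreated ones, and the lefamulin libraries were far above both. NAV3, a neuron navigator protein, rose at both steps, with 1.61, 1.22 and 1.25 CPM in untreated, 8.18, 7.01 and 8.15 CPM in M5 and 81.5, 83.8 and 80.3 CPM in lefamulin libraries (5.91, SE 0.11). ESM1, a secreted proteoglycan of endothelium, did likewise with no count in untreated, 0.187, 0.247 and 0.188 CPM in M5 and 5.36, 4.8 and 5.21 CPM in lefamulin libraries, the last at least 201-fold above the floor of 3 counts. PRR9, a proline-rich protein of the epidermal differentiation complex, had 0, 0.104 and 0.025 CPM in untreated, 0.0535, 0.192 and 0.0804 CPM in M5 and 10.1, 9.88 and 10.03 CPM in lefamulin libraries (7.77, SE 0.64).

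The largest falls among genes with at least 5 CPM in a group led to levels near 0. CPA4, a carboxypeptidase, had 37.6, 38.4 and 41.6 CPM in untreated, 1.26, 1.18 and 1.31 CPM in M5 and 0.359, 0.537 and 0.427 CPM in lefamulin libraries (-6.46, SE 0.21). DIO2, the deiodinase that activates thyroid hormone, had 9.58, 7.6 and 9.32 CPM in untreated, 4.6, 4.78 and 4.75 CPM in M5 and 0.0553, 0.0847 and 0.114 CPM in lefamulin libraries (-6.65, SE 0.42), so most of its fall lay between M5 and M5 with lefamulin (-5.75, SE 0.42). For CPA4 most lay between untreated cells and M5 (-4.97, SE 0.14). KRT4, a keratin of moist stratified epithelium, ANK1, a membrane ankyrin, and VAV3, a guanine nucleotide exchange factor, had log2 fold changes of -6.34 (SE 0.51), -6.08 (SE 0.25) and -5.90 (SE 0.29). VIT, a matrix protein, had 5.21 ± 0.0436 CPM in untreated and 2 counts in lefamulin libraries, 278-fold lower (95% counting interval 76.6 to 2299.5).

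Some genes changed direction between the steps. Among those higher with M5 and below baseline with lefamulin, the rule for named genes picked TRIM22, TNFSF10 and TNFAIP2, given above, with ID1, an inhibitor of differentiation factors, LINC00673, a long noncoding RNA, and PPARGC1B, a coactivator of mitochondrial genes. ID1 had 161, 186 and 166 CPM in untreated, 297, 302 and 296 CPM in M5 and 88.5, 84.3 and 85 CPM in lefamulin libraries (-0.99, SE 0.04). The reverse pattern was led by PNPLA3, a lipid droplet hydrolase and SREBP target, with 0.997, 0.752 and 1.12 CPM in untreated, 0.321, 0.192 and 0.241 CPM in M5 and 9.4, 10.1 and 11 CPM in lefamulin libraries (3.40, SE 0.19). C1orf116, an epithelial gene of little known function, followed with 76.4, 74.8 and 77.2 CPM in untreated, 29.3, 26.5 and 30.6 CPM in M5 and 339, 346 and 346 CPM in lefamulin libraries (2.17, SE 0.04). These patterns were chosen by both contrasts, so their values are descriptions.

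The next genes differed by at least 4-fold between M5 alone and untreated cells. In M5 with lefamulin they lay within 0.5 of untreated cells on the log2 scale, by their 95% interval. The rule picked at most 8 such genes, and how many met it in all was not counted. FAM20C, a kinase of secreted proteins, had 3.88, 2.93 and 2.97 CPM in untreated, 23, 20.5 and 22.7 CPM in M5 and 3.9, 3.05 and 3.5 CPM in lefamulin libraries (0.09, SE 0.13). ADAM28, a membrane protease, had 6.21, 5.03 and 4.62 CPM in untreated, 32.2, 32.7 and 31.3 CPM in M5 and 5.25, 4.07 and 6.12 CPM in lefamulin libraries (-0.04, SE 0.14), and untreated and lefamulin libraries of both genes overlapped. LNCAROD, a long noncoding RNA, was below untreated cells with M5 alone, with 21.4, 19.2 and 20.9 CPM in untreated, 4.86, 4.29 and 5.26 CPM in M5 and 21.5, 18.3 and 23.3 CPM in lefamulin libraries (0.04, SE 0.08). C1R, a complement protease, and DKK1, a Wnt inhibitor, came near it and still differed, with 37.9 ± 1.05 against 31.2 ± 2.45 CPM (0.28, SE 0.05, not called on unfiltered log2(FPKM + 1)) and 269.9 ± 0.256 against 202 ± 9.21 CPM (0.42, SE 0.03). These were chosen for their intervals.

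**Figure D4:**
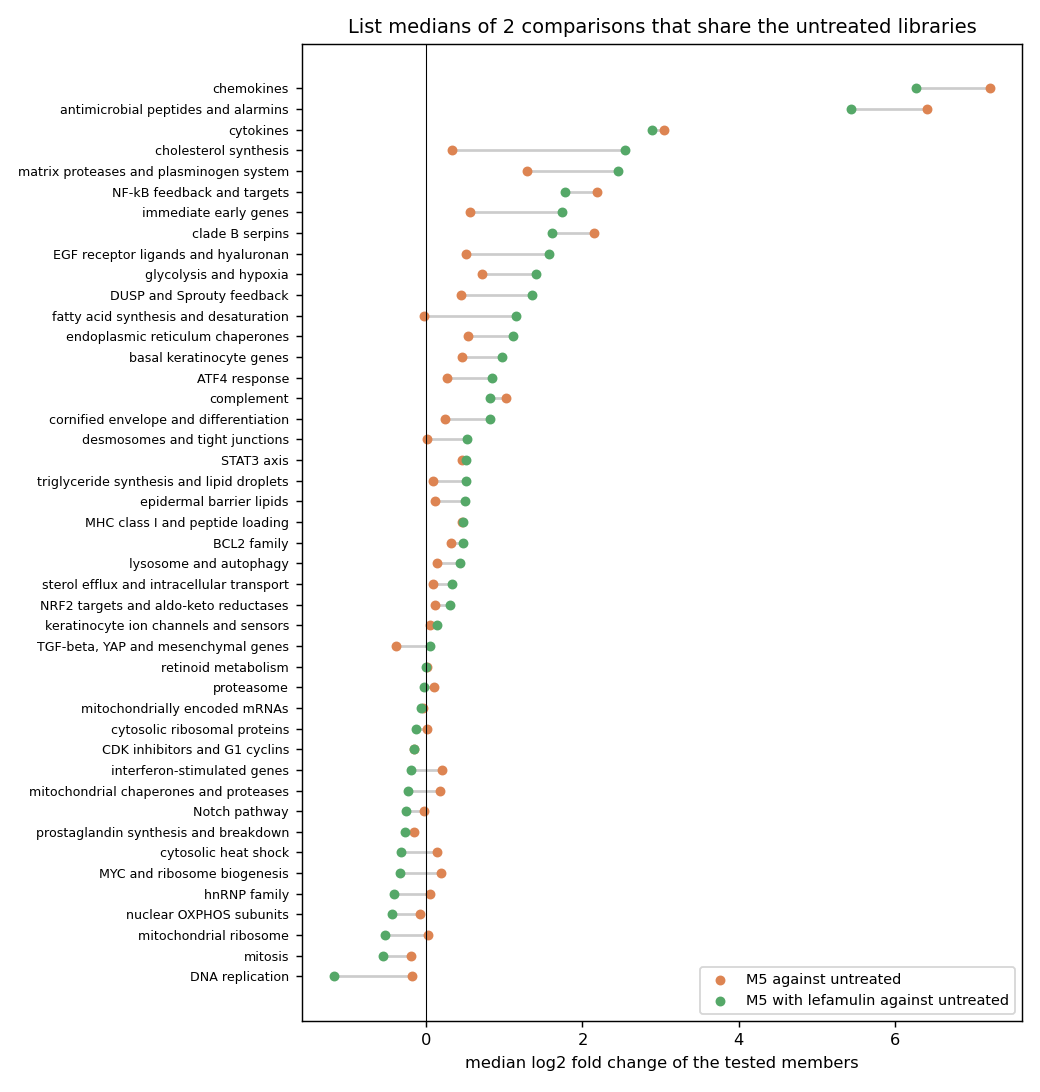
Each line of the plot is 1 gene list, with the median fitted log2 fold change of its tested members against untreated cells for M5 alone (orange) and M5 with lefamulin (green) on the x axis; both comparisons use the same untreated libraries. Chemokines and antimicrobial peptides have medians of 6.28 and 5.44 with lefamulin, below those of M5 alone, and cholesterol synthesis (2.54) and DNA replication (-1.18) lie farther from 0 than with M5 alone.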

How the data were processed

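RNA-seq counts per gene and FPKM values of 12 HaCaT libraries were used, with groups from the labels. The authors deposited counts made from reads with HISAT2 and HTSeq, per the submitters' processing notes; the sources used here do not give versions, genome build or strand setting. Libraries were made with a VAHTS Universal V6 kit, per the labels' protocols. The deposited FPKM values equalled count over length and library total for 20422 genes (largest coefficient of variation 3.92e-07).

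Counts were fitted with edgeR 4.0.16 (R 4.3.3): filterByExpr by 4 groups, TMM, 1 mean per group over all 12 libraries, the quasi-likelihood test and Benjamini-Hochberg adjustment over 14207 genes. SEs and 95% intervals are Wald-type from this fit. A gene without counts in a group was set at a floor of 3 counts over the group, and ratios to 1 to 3 counts have exact counting intervals, which cover counting error only. The script recovered known changes in simulated counts in which few genes changed and the spread was that of the fit. Most genes were called in the data, so that run does not check the TMM scaling. DESeq2 1.42.0 and limma 3.58.1 were alternatives, with other scalings, filters, pseudocounts of 1 and 0.1, a replicate block and each library left out.

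Members, gene lists and motifs were chosen with earlier results of these data known. Genes were named by rule: the 12 largest rises and falls by fold and 8 by CPM among called genes with at least 5 CPM in a group and no overlap, 6 of each pattern across M5, 8 with an interval within 0.5 of untreated cells, and up to 3 per direction in each list. CXCL8, S100A8, S100A9, IL6, IL1B, LCN2, EGR1, HSPA5, MCM6, CDC6, PSPH, PHGDH, NQO1 and SREBF2 were added after their values were seen. Of 8 motif strings tried 3 were kept, and 6 promoters were picked after their matches were seen. The retapamulin libraries entered only the fit and the principal components. Some results are not reported here.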

Additional observations from a re-analysis of the deposited data

How the results depend on the processing

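Each number of genes called between M5 with lefamulin and untreated cells stayed within 1.5 times its value under every alternative run, apart from the number at least 2-fold apart on log2(FPKM + 1), which was 707 higher and 613 lower, with or without a filter, against 1759 and 1355. A pseudocount of 1 shrinks differences of low genes by construction. Without 1 library these numbers were 5006 to 5170 higher, 4934 to 5211 lower, 1705 to 1776 at least 2-fold higher and 1308 to 1368 at least 2-fold lower. List medians depended more on scaling. On library totals 48 of 51 moved by at least 1 SD of the list's median between replicates, and 48 did on each FPKM run. Over all runs the median of sterol efflux and transport ranged from 0.00 to 0.38, and that of cytosolic ribosomal proteins from -0.30 to -0.12. Medians of the channel, retinoid and TGF-beta lists changed sign under some alternatives, and those of the other lists did not.

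For M5 alone against untreated cells 4022 genes were higher and 3817 lower, but 2675 and 5823 on library totals, 2574 and 5771 on log2(FPKM + 1), and 2556 and 5895 on log2(FPKM + 1) without a filter, and 2619 were higher on log2(FPKM + 0.1). The cause was not tested; those scales carry no TMM factors. Of 305 genes named by rule, 283 kept direction and call under every alternative that tested them, and 10 changed call without 1 library. The filter at 1 CPM in 3 libraries tested 297 of the 305. The 6 that changed sign did so on library totals, log2(FPKM + 1), log2(FPKM + 0.1) and unfiltered log2(FPKM + 1), with values in that order of -0.0364, -0.0356, -0.0365 and -0.0356 for BUB3, -0.00898, -0.00902, -0.00919 and -0.00902 for DAP3, -0.0402, -0.0382, -0.0385 and -0.0382 for DDX21, -0.0296, -0.0297, -0.0302 and -0.0297 for DNAJB1, -0.0910, -0.0906, -0.0908 and -0.0906 for HNRNPK, and -0.0419, -0.0407, -0.0416 and -0.0407 for MRPS30.

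Whether the replicate numbers pair the libraries was not settled. Deviations of same-numbered untreated and lefamulin libraries correlated at -0.0887 to -0.0331 over 3 pairs. Replicates 1, 2 and 3 had -0.0358, 0.131 and 0.184 between untreated and M5, and 0.0558, -0.0442 and -0.14 between M5 and lefamulin. With 3 libraries a group these values cannot decide it. With the replicate number as a block, 5241 genes were higher and 5252 lower, 1760 and 1350 of them by at least 2-fold. Genes with few counts limit precision, and folds against untreated cells without a count are lower bounds. With 3 libraries a group, no dose, time or lefamulin alone, the comparison does not separate lefamulin from its combination with M5.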

Other observations

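Several small gene lists had clear leaders. PTGS2, the inducible cyclooxygenase COX-2, had 6.21, 5.99 and 8.25 CPM in untreated, 429.9, 425 and 457 CPM in M5 and 189.8, 190.3 and 191 CPM in lefamulin libraries (4.80, SE 0.07), while HPGD, which degrades prostaglandins, had 2.2, 2.78 and 3.37 CPM in untreated, 0.909, 0.412 and 0.751 CPM in M5 and 0.111, 0.113 and 0.142 CPM in lefamulin libraries (-4.47, SE 0.52). The list of prostaglandin synthesis and breakdown had 2 of 12 genes higher and 6 lower. Of 25 NRF2 targets and aldo-keto reductases 17 rose and 6 fell. HMOX1, heme oxygenase 1, rose from 0.128 ± 0.0687 to 1.41 ± 0.297 CPM (3.43, SE 0.46), and NQO1, a quinone reductase, fell (-0.53, SE 0.03). CYP1A1, a target of the aryl hydrocarbon receptor, fell (-3.46, SE 0.31), and 6 of 9 genes of its list fell and 3 rose.

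Metallothioneins and zinc export genes rose in 6 of 7 cases, with MT2A, a metal-binding protein, at 575 ± 59.2 CPM against 96 ± 9.49 in untreated and 508 ± 44.9 with M5 (2.58, SE 0.07). Of 16 genes of the BCL2 family 13 rose and 3 fell, but 9 rose on FPKM, and 1 fell without lefamulin replicate 1 or without untreated replicate 3. BBC3, which encodes the death activator PUMA, had 3.91, 4.57 and 5.85 CPM in untreated and 24.9, 23.4 and 24.1 CPM in lefamulin libraries (2.33, SE 0.10). BCL2A1, a survival protein and NF-kB target, had no count in untreated libraries and 2.82, 3.3 and 3.82 CPM with lefamulin, at least 129.8-fold above the floor of 3 counts over the group, beside 5.72, 5.85 and 5.68 CPM with M5. Of 17 mitochondrial chaperones and proteases 5 rose and 9 fell (3 and 12 on library totals), and of 14 retinoid genes 6 rose and 6 fell.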
